A study of Mus musculus with 6 samples.

Results

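The genes described here encode the machinery that imports proteins into mitochondria. They were all the protein-coding gene symbols that start with Timm or Tomm, to which Samm50, Pam16, Dnajc19, Grpel1, Hspa9, Pmpca, Pmpcb, Chchd4, Gfer, Mtx1 and Mtx2 were added by name. The rule reads gene names only, although the set was picked with earlier results of these data known. It gave 37 genes of the 25690 gene symbols in the tables, and 35 of them had enough counts to be among the 15474 genes tested.

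RNA was sequenced from immature CD27SP NK cells of the bone marrow (BM), a cycling NK cell stage sorted as NK1.1+CD27+CD11b- cells without CD3. There were 3 samples of the genotype Ncr1cre Myc wt/wt and 3 of Ncr1cre Myc fl/fl, each numbered 1, 2 and 4, from sex- and age-matched mice on the C57BL/6 background. Both genotypes carry the Cre recombinase, which is expressed from the Ncr1 locus and so acts once a cell makes NKp46. In Myc fl/fl mice it deletes both floxed Myc alleles, and in Myc wt/wt mice it has no floxed allele to cut. The deletion is thus limited to NKp46-expressing cells and spares earlier progenitors, and the comparison asks how BM NK cells differ when Myc is deleted during their development. Totals of estimated counts lay between 54550907 and 64962491 in 5 libraries, and Myc wt/wt library 1 was far shallower, at 8101219. Levels are given as counts per Mio after TMM scaling (CPM), always in the order of libraries 1, 2 and 4. Myc itself had 200.5, 183.4 and 164.3 CPM in Myc wt/wt and 61.5, 64.6 and 76.5 CPM in Myc fl/fl cells, a log2 fold change of −1.44 (adjusted p = 0.00189, edgeR), with no overlap between the genotypes. The Myc fl/fl libraries thus still held 37.0% of the Myc wt/wt transcript level.

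Most mitochondrial proteins are made in the cytosol and must cross one or both mitochondrial membranes. The TOM complex is the entry gate of the outer membrane, where receptors bind the precursor and a channel lets it through. From there, precursors with a cleavable presequence pass the TIM23 channel, pulled by a motor built around the chaperone mortalin, and the mitochondrial processing peptidase removes the presequence. Small TIM chaperones guide hydrophobic precursors through the intermembrane space, either to the TIM22 complex, which inserts carrier proteins into the inner membrane, or to the SAM complex, which folds barrel proteins into the outer membrane. A disulfide relay traps small cysteine-rich proteins, the small TIMs among them, in the intermembrane space. Myc is a transcription factor that binds the E-box CACGTG with its partner Max, and genes of mitochondrial biogenesis are among its known targets in other cells.

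The letters CACGTG were searched in the RefSeq promoter windows of the import genes, each from 250 bases before to 50 bases after a gene's annotated start in GRCm38.p6. Windows were found for 33 of the 37 genes. The motif reads the same on both strands and occurred in 5 of the 33 genes (15.2%), against 8.09% of all 27025 genes with a window and 7.15% of all 32851 windows. Among genes tested for expression the shares were close to each other, with 4 of 31 import genes (12.9%) against 10.98% of all 10886 with a window. The 5 genes were Timm8a1, Timm9, Timm10, Tomm20 and Tomm20l. The search was made with the expression results known, and a match is a description of the sequence, not a binding site. The 7 matches are shown with 12 bases on each side, because the genes that carry them include those with the lowest levels in Myc fl/fl cells relative to Myc wt/wt. The number before each sequence counts from the RefSeq start at 0 to the first base of the motif, and capitals mark CACGTG.
Timm8a1 at −236: ccttcagtggacCACGTGggatgaagcaac
Timm8a1 at 24: ccgtcacccagaCACGTGaaggtcggcaag
Timm9 at −58: cctacattttccCACGTGgtaacgaatctg
Timm9 at −1: catcactgccccCACGTGttctcagctttc
Timm10 at 28: ccggaagtgaccCACGTGcttcttatttcg
Tomm20 at −126: gcacgccacaaaCACGTGctgcccctgacc
Tomm20l at −25: ccggggtttgctCACGTGtggctggcccgt
These windows lie on the minus strand at chrX:134541889-134541918 and chrX:134541629-134541658 for Timm8a1, chr12:71136716-71136745 and chr12:71136659-71136688 for Timm9 and chr8:126946030-126946059 for Tomm20. On the plus strand, that of Timm10 is chr2:84827037-84827066 and that of Tomm20l is chr12:71111391-71111420. Annotations differ in where the genes start. The GENCODE M21 start of Timm8a1 lies 195 bases upstream of the RefSeq start, so the first of its motifs begins at −41 from that start and the second lies within the annotated gene. In Timm10 the single motif lies inside the gene by both annotations.

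Longer stretches upstream of both annotated starts are given for Timm9 and Tomm20, which hold CACGTG there, and for Timm8b, the close paralog of Timm8a1, which holds no CACGTG in its window. Timm8a1, with only 55 bases upstream of both starts, and Tomm20l also hold CACGTG there and are not shown at length. The stretches shown lie at chr12:71136685-71136925 (minus strand), chr8:126945922-126946171 (minus strand) and chr9:50603651-50603900 (plus strand). Capitals mark CACGTG, and in Tomm20 also CGCGTG, the other strand of CACGCG, a non-canonical E-box that was searched as well. The window of Timm8b also holds CGCGTG, after the start and so outside the stretch shown.
Timm9: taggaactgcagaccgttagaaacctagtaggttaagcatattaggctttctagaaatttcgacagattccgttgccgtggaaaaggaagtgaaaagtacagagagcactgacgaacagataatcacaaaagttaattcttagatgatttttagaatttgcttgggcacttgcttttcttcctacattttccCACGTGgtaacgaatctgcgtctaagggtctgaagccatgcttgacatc
Tomm20: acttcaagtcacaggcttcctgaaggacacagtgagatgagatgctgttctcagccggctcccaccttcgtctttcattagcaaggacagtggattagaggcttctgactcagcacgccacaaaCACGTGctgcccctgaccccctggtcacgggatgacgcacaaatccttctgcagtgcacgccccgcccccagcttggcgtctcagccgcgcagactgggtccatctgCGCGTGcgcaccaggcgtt
Timm8b: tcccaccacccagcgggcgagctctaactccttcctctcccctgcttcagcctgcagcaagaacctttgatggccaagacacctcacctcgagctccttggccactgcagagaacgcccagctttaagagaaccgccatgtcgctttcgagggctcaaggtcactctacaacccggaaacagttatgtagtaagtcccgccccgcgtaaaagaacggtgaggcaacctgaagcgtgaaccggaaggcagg
The non-canonical letters CACGCG occurred in 9 of the 33 genes (27.3%), against 10.5% of all genes with a window and 9.27% of all windows. Among genes tested for expression it occurred in 9 of 31 import genes (29.0%), against 18.5% of all 10886.

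The quasi-likelihood test of edgeR was run on all 15474 genes with the replicate number as a block. The threshold was an adjusted p below 0.01 together with a log2 fold change of 0.5 or more in size. Of the 35 import genes tested, 1 fell past the threshold, Timm8a1 (2.86%, against 0.872% of all genes tested), and 0 rose (against 1.28%). With an adjusted p below 0.05 and no limit on the fold change there were 5 lower genes (14.3%, against 3.38%), Timm8a1, Hspa9, Tomm20, Timm9 and Timm10, and 0 higher ones (against 4.45%). At an unadjusted p below 0.05 the numbers were 12 lower (34.3%, against 10.2%) and 0 higher (against 12.4%). The fitted difference was below 0 in 30 of the 35 genes (85.7%, against 48.5%). The median log2 fold change of the import genes was −0.27, and that of all genes tested was 0.01. Other tools differed in how many genes they called in all. Past the threshold, 5 import genes fell in DESeq2, the same 5 genes (14.3%, against 3.47% of all genes tested), and 0 rose (against 4.16%). In limma-trend 1 fell (2.86%, against 0.504%) and 0 rose (against 0.931%). Without the libraries numbered 1, of which the Myc wt/wt one is the shallow one, 0 import genes passed the threshold (against 0.0636% of all genes lower and 0.312% higher). In that edgeR fit 1, Timm8a1, had an adjusted p below 0.05, and the share of all genes at that limit was not computed. In bulk libraries, fewer cells of a type and less RNA per cell cannot be told apart.

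Seen library by library, 17 of the 35 genes had all 3 Myc fl/fl libraries below all 3 Myc wt/wt libraries (48.6%, against 15.1% of all genes tested), and 0 had them all above (against 16.2%). Between libraries of the same number, 20 genes were lower in all 3 comparisons (57.1%, against 21.2%) and 0 were higher in all 3 (against 24.2%). The median difference over the 35 genes was −0.33, −0.14 and −0.31 on the log2 scale between the libraries numbered 1, 2 and 4, with 26, 28 and 29 genes lower. The summed level of the import genes was 2709, 2589 and 2623 CPM in Myc wt/wt and 2104, 2305 and 2142 CPM in Myc fl/fl libraries, without overlap. Summed as TPM, which also divides by transcript length, the import genes had 3290.6, 3657.0 and 3589.5 in Myc wt/wt and 3138.2, 3305.5 and 3083.5 in Myc fl/fl libraries, and there Myc wt/wt library 1 lay below Myc fl/fl library 2.

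**Figure D1:**
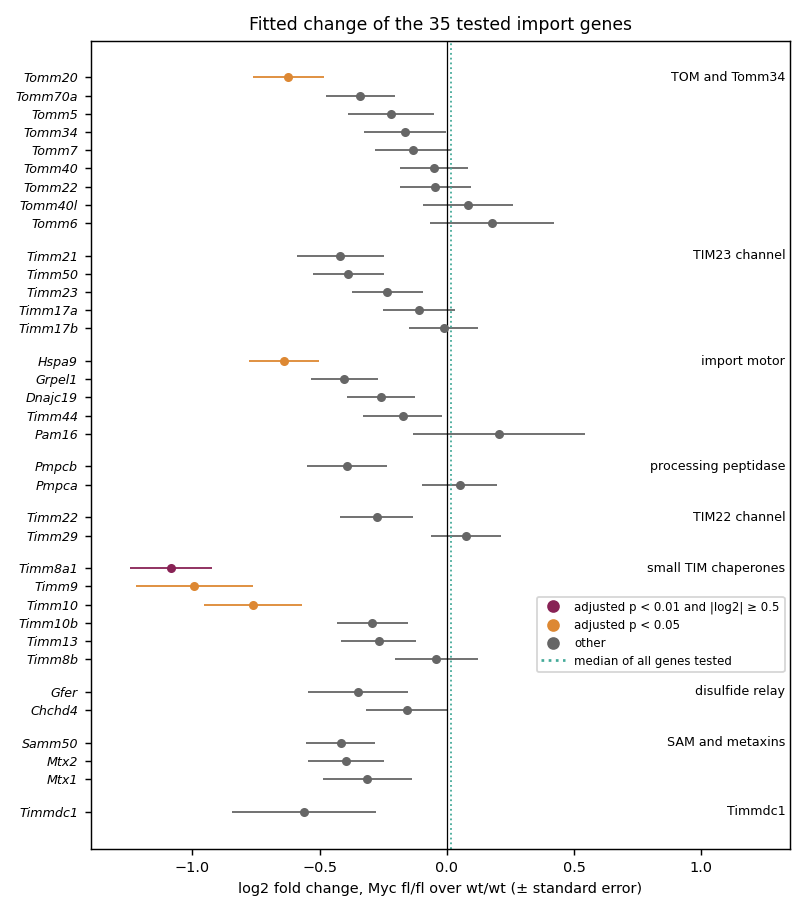
Fitted log2 fold change (x axis, Myc fl/fl over Myc wt/wt, bars ± standard error) of the 35 tested import genes, listed by complex. Timm8a1 at −1.09 is the gene past the threshold, the other 4 genes with an adjusted p below 0.05 are coloured, and 30 of the 35 points lie left of 0.

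The small TIM chaperones had the lowest median of the complexes with more than 1 tested gene, −0.53 over 6 tested genes, all with a fitted difference below 0 (against 48.5% of all genes tested). They form soluble ring-shaped hexamers that hold hydrophobic precursors on their way across the intermembrane space. Timm8a1 (ENSMUSG00000048007.4, chromosome X of GRCm38 from 134537256 to 134541865) encodes a subunit that pairs with Timm13, and loss of its human counterpart causes a deafness-dystonia syndrome. It had 73.5, 51.5 and 52.4 CPM in Myc wt/wt and 27.3, 27.98 and 27.0 CPM in Myc fl/fl cells. The Myc fl/fl values lay within a narrow range and below every Myc wt/wt value, of which library 1 was the highest. The means were 59.1 ± 12.5 and 27.4 ± 0.518 CPM (SD, n = 3), and the fit gave a log2 fold change of −1.09 (SE 0.161, adjusted p = 0.00561, 95% interval −1.45 to −0.73), so that Myc fl/fl cells kept 46.4% of the Myc wt/wt level. Without both libraries numbered 1 the log2 fold change was −0.92 (adjusted p = 0.0271, edgeR), which is no longer past the threshold. The adjusted p also missed 0.01 with library sizes alone in place of TMM (0.0113) and with protein_coding transcripts only (0.0101). Without Myc wt/wt library 1 alone and without the block it was −0.94 (adjusted p = 0.00573).

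Timm9 and Timm10 together build the main chaperone hexamer of the intermembrane space, which delivers carrier precursors to TIM22. Timm9 (chromosome 12 of GRCm38 from 71123173 to 71136684) had 35.7, 23.6 and 26.4 CPM in Myc wt/wt and 11.8, 17.2 and 13.7 CPM in Myc fl/fl cells. No Myc fl/fl library reached a Myc wt/wt library, and Myc fl/fl cells had 49.8% of the Myc wt/wt level (log2 fold change −0.99, SE 0.229, adjusted p = 0.0300). Timm10 (chromosome 2 of GRCm38 from 84826997 to 84830213) had 19.9, 21.4 and 23.4 CPM in Myc wt/wt and 9.87, 14.9 and 13.7 CPM in Myc fl/fl cells. These did not overlap either, and 59.5% of the level was left (log2 fold change −0.76, SE 0.191, adjusted p = 0.0414). Both log2 fold changes exceeded 0.5 in size, and both adjusted p-values missed 0.01. Without the libraries numbered 1 they were −0.70 for Timm9 and −0.65 for Timm10.

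The other small TIM genes differed less. Timm10b, whose product joins the TIM22 complex, had a log2 fold change of −0.29 (adjusted p = 0.248), and the genotypes did not overlap. Timm13, the partner of Timm8a1, had −0.27 (adjusted p = 0.326), with overlap. It had −0.41 both without the libraries numbered 1 (adjusted p = 0.202) and, with no block, without Myc wt/wt library 1 alone (adjusted p = 0.0519). Timm8b, the paralog of Timm8a1, had 27.0, 35.2 and 34.2 CPM in Myc wt/wt and 31.5, 32.8 and 29.1 CPM in Myc fl/fl cells, a log2 fold change of −0.04 with a 95% interval of −0.41 to 0.32. The interval of Timm8b does not reach that of Timm8a1. Timm8a2, a further paralog, had 0, 4 and 6 estimated counts in the Myc wt/wt and 0, 4 and 0 in the Myc fl/fl libraries and was not tested.

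**Figure D2:**
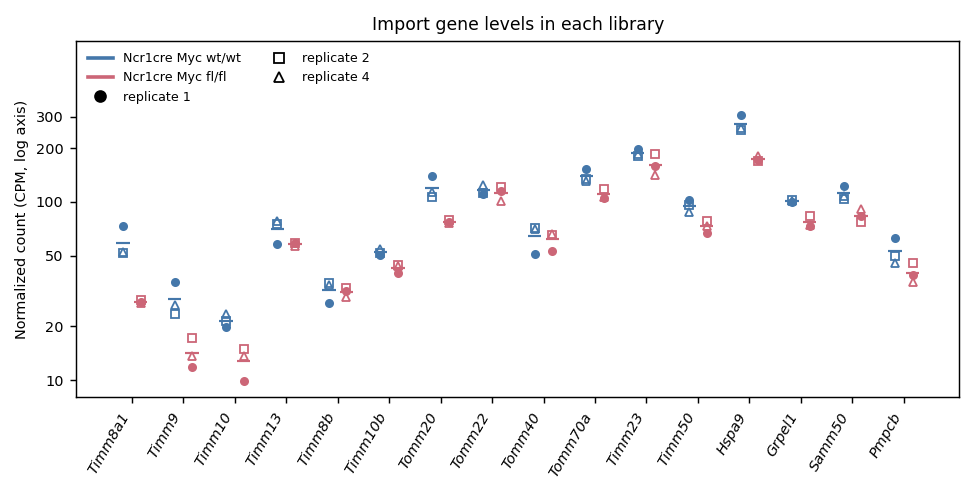
Normalized count (y axis, CPM, log scale) of 16 import genes in each library, Myc wt/wt in blue and Myc fl/fl in red, with the replicate number as the symbol and the mean as a line. Timm8a1, Timm9, Timm10, Tomm20 and Hspa9 separate by genotype, whereas Timm8b, Tomm22, Tomm40 and Timm23 overlap.

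In the TOM complex, 7 of 9 tested genes had a fitted difference below 0, with a median of −0.13, and 2 were lower without overlap between the genotypes. Over all genes tested 48.5% were below 0 and 15.1% lower without overlap, so the second count was near that share. Tomm20 (chromosome 8 of GRCm38 from 126930667 to 126945844), the receptor that recognizes presequences, had 139.4, 106.7 and 113.9 CPM in Myc wt/wt and 77.4, 78.7 and 76.0 CPM in Myc fl/fl cells. The Myc fl/fl libraries were close to each other and below all Myc wt/wt libraries, with 64.5% of the level left (log2 fold change −0.62, SE 0.140, adjusted p = 0.0273). Without both libraries numbered 1 the log2 fold change of Tomm20 was −0.51 (adjusted p = 0.11, edgeR). Tomm70a, the receptor for carrier precursors brought by cytosolic chaperones, had 153.1, 133.5 and 131.6 CPM in Myc wt/wt and 105.6, 117.8 and 106.4 CPM in Myc fl/fl cells. It did not overlap, at a log2 fold change of −0.34 (adjusted p = 0.174). Tomm22, the receptor that also organizes the complex, had a log2 fold change of −0.05 with a 95% interval of −0.36 to 0.27.

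Tomm40 is the channel of the outer membrane. It had 50.8, 71.6 and 70.1 CPM in Myc wt/wt and 53.1, 65.3 and 66.4 CPM in Myc fl/fl cells, and the genotypes overlapped. Its log2 fold change was −0.05, with a 95% interval of −0.35 to 0.25. Tomm40l, a less abundant channel paralog, had 0.08 (interval −0.31 to 0.48). Among the small subunits that stabilize the channel, Tomm5 had −0.22, Tomm7 −0.13 and Tomm6 0.18 on the log2 scale, and all 3 overlapped. With a replicate left out, Tomm5 ran from −0.42 without the libraries numbered 1 to −0.0257 without those numbered 4. Tomm7 had −0.27 and −0.00329 in the same fits. Tomm34, a cytosolic co-chaperone that carries the family name, had −0.16. Tomm20l, a paralog of Tomm20, had 0, 3 and 2 estimated counts in the Myc wt/wt libraries and 0 in each Myc fl/fl library, and was not tested.

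All 3 genes of the set that belong to the sorting and assembly machinery of the outer membrane were lower without overlap between the genotypes (against 15.1% of all genes tested). Samm50, its barrel-shaped core, had 123.2, 104.2 and 107.9 CPM in Myc wt/wt and 83.2, 76.9 and 90.6 CPM in Myc fl/fl cells. Every Myc fl/fl value was below the lowest Myc wt/wt value, at a log2 fold change of −0.42 (SE 0.135, adjusted p = 0.0946). The metaxin gene Mtx2 had 52.5, 50.8 and 51.0 CPM in Myc wt/wt and 37.4, 46.0 and 34.7 CPM in Myc fl/fl cells. The Myc wt/wt values of Mtx2 were nearly equal and above all Myc fl/fl values (log2 fold change −0.40, adjusted p = 0.149). Its partner Mtx1 had 54.3, 37.5 and 36.8 CPM in Myc wt/wt and 32.2, 35.5 and 33.8 CPM in Myc fl/fl cells, a narrow gap apart from Myc wt/wt library 1. Its log2 fold change was −0.31 (adjusted p = 0.333), −0.10 without both libraries numbered 1 and −0.15 without Myc wt/wt library 1 alone and without the block. Mtx3, measured outside the set among other sorting genes, overlapped, with 3.25, 1.36 and 2.35 CPM in Myc wt/wt and 0.647, 2.10 and 1.46 CPM in Myc fl/fl cells.

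The TIM23 channel of the inner membrane had 5 of 5 tested genes with a fitted difference below 0, a median of −0.23, and 2 genes lower without overlap (against 48.5% and 15.1% of all genes tested). Timm23, the channel subunit and the import gene with the highest TPM in Myc wt/wt cells (267.6 on average), had 198.4, 181.8 and 185.9 CPM in Myc wt/wt and 157.8, 184.8 and 141.5 CPM in Myc fl/fl cells. Myc fl/fl library 2 lay within the Myc wt/wt range and the other Myc fl/fl libraries below it (log2 fold change −0.23, adjusted p = 0.377, and −0.35 without both libraries numbered 2). Its structural partners Timm17a and Timm17b had log2 fold changes of −0.11 and −0.01, with a 95% interval of −0.31 to 0.29 for Timm17b. Leaving out a replicate moved Timm17a between −0.22 (number 2) and −0.03 (number 1), and with protein_coding transcripts only Timm17a had −0.04 and Timm17b −0.18. Timm50, the receptor that takes over precursors from TOM, had 101.7, 96.1 and 88.0 CPM in Myc wt/wt and 66.5, 78.1 and 73.6 CPM in Myc fl/fl cells. The genotypes of Timm50 did not overlap (log2 fold change −0.39, adjusted p = 0.128). Timm21, which links the channel to TOM, had 39.2, 30.4 and 32.5 CPM in Myc wt/wt and 26.2, 28.5 and 21.7 CPM in Myc fl/fl cells, again without overlap (log2 fold change −0.42, adjusted p = 0.181).

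The motor of the matrix side had 4 of 5 genes with a fitted difference below 0 and 3 lower without overlap (against 48.5% and 15.1% of all genes tested), at a median of −0.26. Hspa9 encodes mortalin, the ATP-driven chaperone that pulls precursors in. It had 306.5, 252.2 and 257.8 CPM in Myc wt/wt and 171.1, 169.5 and 181.5 CPM in Myc fl/fl cells. The highest Myc fl/fl value was far below the lowest Myc wt/wt value, and 63.9% of the level was left (log2 fold change −0.64, SE 0.137, adjusted p = 0.0225). Without both libraries numbered 1 the log2 fold change of Hspa9 was −0.54 (adjusted p = 0.0870, edgeR). Grpel1, the nucleotide exchange factor that resets mortalin, had 100.3, 102.2 and 101.0 CPM in Myc wt/wt and 73.0, 83.0 and 73.9 CPM in Myc fl/fl cells. Its Myc wt/wt libraries were nearly equal and above all Myc fl/fl libraries (log2 fold change −0.40, SE 0.131, adjusted p = 0.0963). Dnajc19, the J protein that stimulates mortalin, had −0.26 (adjusted p = 0.299) without overlap. Timm44, the tether of the motor to the channel, had −0.17 (−0.11 without both libraries numbered 1 and −0.38 with protein_coding transcripts only), and Pam16, the regulator of the J protein, had 0.21 with the wide 95% interval of −0.55 to 0.96.

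The processing peptidase has a pair of subunits. Pmpcb, the catalytic subunit, had 62.9, 49.8 and 45.6 CPM in Myc wt/wt and 38.8, 45.3 and 35.7 CPM in Myc fl/fl cells. The genotypes were separated by a small gap between Myc wt/wt library 4 and Myc fl/fl library 2 (log2 fold change −0.39, adjusted p = 0.170, and −0.25 without both libraries numbered 1). Pmpca, the subunit that binds the presequence, had 170.8, 152.6 and 134.1 CPM in Myc wt/wt and 145.1, 162.3 and 164.3 CPM in Myc fl/fl cells. These overlapped, at a log2 fold change of 0.05 with a 95% interval of −0.28 to 0.38.

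Timm22, the channel for carrier proteins, had 42.9, 48.5 and 50.3 CPM in Myc wt/wt and 37.7, 41.3 and 38.0 CPM in Myc fl/fl cells. The values did not overlap, and the adjusted p missed the threshold (log2 fold change −0.28, SE 0.143, adjusted p = 0.296). Timm29, which anchors the TIM22 complex, had 0.08 with a 95% interval of −0.23 to 0.38. In the disulfide relay, the oxidoreductase gene Chchd4 had −0.16 and the sulfhydryl oxidase gene Gfer −0.35 (adjusted p = 0.634 and 0.340), which became −0.09 and −0.22 without both libraries numbered 1. Timmdc1, which shares the family name but encodes an assembly factor of respiratory complex I, was weakly expressed, with 5.98, 3.15 and 4.00 CPM in Myc wt/wt and 3.74, 2.07 and 3.01 CPM in Myc fl/fl cells. Its log2 fold change was −0.56 with a large error (SE 0.284, adjusted p = 0.283), and −0.29 without Myc wt/wt library 1 and without the block, and the genotypes overlapped.

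A ratio of 2 genes within a library does not depend on the scaling between libraries. Ratios were formed from estimated counts, for 7 pairs of paralogs, and compared by a two-sided exact permutation test, which for 3 against 3 libraries cannot go below p = 0.1. The log2 ratio of Timm8a1 to Timm8b was 1.44, 0.55 and 0.62 in Myc wt/wt and −0.21, −0.23 and −0.11 in Myc fl/fl libraries. All Myc fl/fl values were below all Myc wt/wt values, a difference of the means of −1.05 (exact p = 0.1, adjusted 0.14 over the 7 pairs). Without Myc wt/wt library 1 the difference was −0.77. Estimated counts are not divided by transcript length, so a ratio of 0 does not mark equal levels. As TPM, Timm8a1 had 71.9, 55.7 and 53.4 in Myc wt/wt and 30.2, 30.1 and 29.3 in Myc fl/fl libraries. Timm8b had 94.7, 139.3 and 128.6 against 128.7, 130.3 and 116.9, above Timm8a1 in each library. The ratios of Timm10 to Timm10b (−0.47), Grpel1 to Grpel2 (−0.27), Tomm40 to Tomm40l (−0.14) and Dnajc19 to Dnajc15 (0.30) also did not overlap, each with the same exact p of 0.1 and the same adjusted value. The genotypes overlapped for Timm17a to Timm17b (−0.10, exact p = 0.5) and for Mtx1 to Mtx2 (0.08, exact p = 0.7), but for Mtx1 to Mtx2 they did not without Myc wt/wt library 1 (0.25).

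Genes whose products work in 1 complex were set against each other in the same way, as a description without a test, since these pairs were chosen after their values were seen. The log2 ratio of Timm8a1 to its partner Timm13 was 0.35, −0.55 and −0.57 in Myc wt/wt and −1.10, −1.07 and −1.07 in Myc fl/fl libraries. The means differed by −0.83, and by −0.52 without Myc wt/wt library 1, which stood well above the other Myc wt/wt libraries. That of Tomm20 to Tomm22 differed by −0.58, and by −0.44 without that library. Both ratios were lower in Myc fl/fl libraries without overlap. Timm9 to Timm10 stayed within overlapping values (0.84, 0.14 and 0.17 in Myc wt/wt and 0.26, 0.21 and −0.01 in Myc fl/fl libraries). The ratio of Pmpca to Pmpcb was 1.44, 1.62 and 1.56 in Myc wt/wt and 1.90, 1.84 and 2.20 in Myc fl/fl libraries, higher in all Myc fl/fl libraries.

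**Figure D3:**
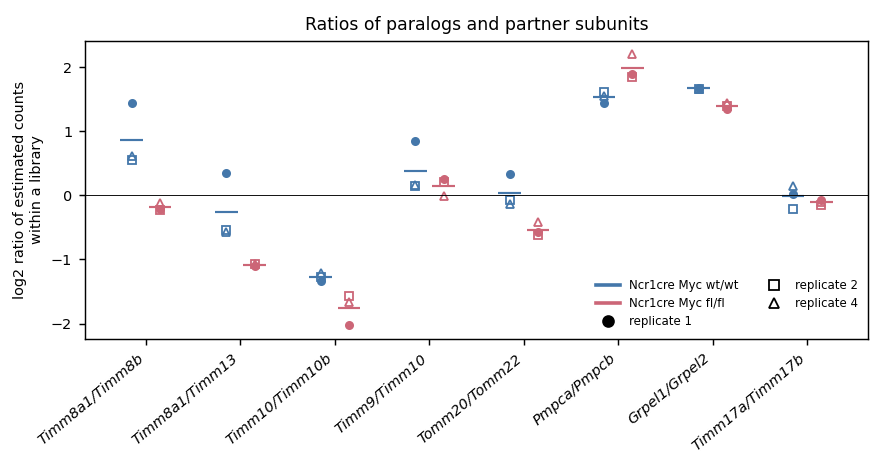
Log2 ratio of estimated counts of 2 genes within a library (y axis) for 8 pairs, Myc wt/wt in blue and Myc fl/fl in red, with the replicate number as the symbol and the mean as a line. The ratio of Timm8a1 to Timm8b is lower in the 3 Myc fl/fl than in the 3 Myc wt/wt libraries, and that of Timm17a to Timm17b overlaps. Counts are not divided by transcript length, so 0 does not mark equal levels.

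Of the 31 tested import genes with a promoter window, the 4 that hold CACGTG had a median log2 fold change of −0.88 and the 27 without it −0.23. The 4 are Timm8a1, Timm9, Timm10 and Tomm20, which are 4 of the 5 genes with an adjusted p below 0.05. The fifth, Hspa9, was not matched to a window. Over the 10886 tested genes with a window the presence of the motif went with little difference, with medians of 0.01 for 1195 genes with it and 0.03 for 9691 genes without it. For CACGCG the order among the import genes was the opposite, with −0.16 for 9 genes with it and −0.30 for 22 genes without it. No test was made of these splits.

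**Figure D4:**
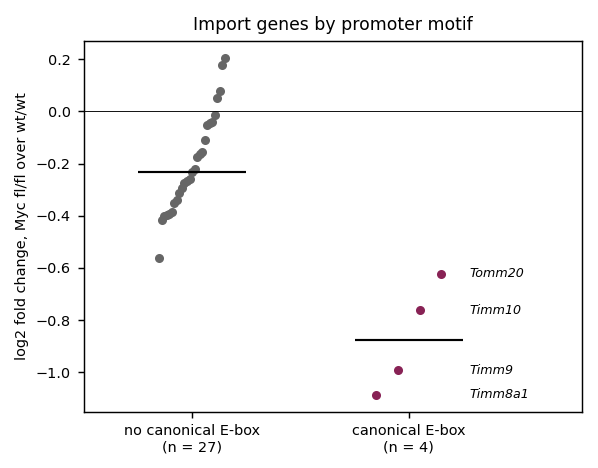
Fitted log2 fold change (y axis, Myc fl/fl over Myc wt/wt) of 27 import genes without and 4 with the canonical E-box CACGTG in the RefSeq promoter window, with the median as a line. The 4 genes with it lie below the other 27, at a median of −0.88 against −0.23, and the split was not tested.

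Other genes of mitochondrial protein biogenesis, 47 in number, were measured alongside. They cover further sorting and insertion genes, peptidases, matrix chaperones, quality control proteases, genes of the inner membrane organizing system and clients of the disulfide relay. Of these, 39 had a fitted difference below 0 (against 48.5% of all genes tested) and 8 above, and the median was −0.18. In edgeR 0 passed the threshold in either direction (against 0.872% of all genes lower and 1.28% higher). With no adjustment, 7 of the 47 were lower at a p below 0.05 (against 10.2%) and 0 higher (against 12.4%). Past the threshold, 1 of the 47 fell in DESeq2 (against 3.47%) and 0 in limma-trend (against 0.504%), both below those shares. The 1 gene with an adjusted p below 0.05 (against 3.38% of all genes lower) was Hspd1, the chaperonin that folds imported matrix proteins. It had 283.1, 243.0 and 260.7 CPM in Myc wt/wt and 167.6, 149.3 and 186.2 CPM in Myc fl/fl cells. The genotypes of Hspd1 did not overlap (log2 fold change −0.65, SE 0.134, adjusted p = 0.0197). Hspe1, its co-chaperonin, had −0.37 (adjusted p = 0.121) and Lonp1, the main protease of the matrix, −0.15 (adjusted p = 0.668).

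For scale, the 78 genes of mitochondrial ribosomal proteins, which are themselves imported, had their median at −0.32 on the log2 scale. Of these, 76 were below 0 (against 48.5% of all genes tested) and 50 were lower without overlap (against 15.1%). In edgeR 0 passed the threshold (against 0.872% lower and 1.28% higher). Of the 78, 35 were lower at an unadjusted p below 0.05 (against 10.2% of all genes tested). Past the threshold, 5 of the 78 fell in DESeq2 (against 3.47%) and 0 in limma-trend (against 0.504%). The 86 tested genes of cytosolic ribosomal proteins had a median of −0.91, and 46 of them fell past the threshold in edgeR (against 0.872%). The difference between the lists was not tested.

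**Figure D5:**
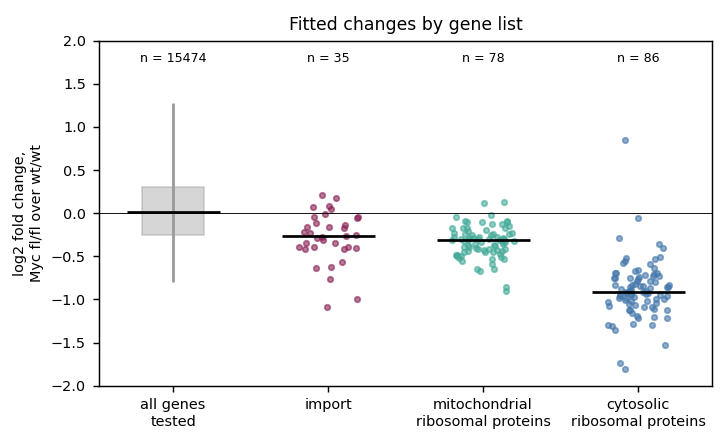
Fitted log2 fold changes (y axis, Myc fl/fl over Myc wt/wt) of 35 import genes, 78 mitochondrial and 86 cytosolic ribosomal protein genes as points, and of all 15474 genes as a box from the 25th to the 75th percentile with a line from the 5th to the 95th. Black lines are medians, at −0.27 for import, −0.32 for mitochondrial and −0.91 for cytosolic ribosomal protein genes and 0.01 for all genes.

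Markers of the sorted cells and of others that could be in the gate were measured in the same libraries. Over all genes tested, 48.5% had a fitted difference below 0, and 10.2% were lower and 12.4% higher at an unadjusted p below 0.05. At an adjusted p below 0.05, 3.38% were lower. Past the threshold, 0.872% were lower and 1.28% higher in edgeR, and 3.47% were lower in DESeq2. Summed over 11 genes, NK cell markers ranged from 11900 to 12100 CPM in Myc wt/wt and from 13300 to 13800 CPM in Myc fl/fl libraries. Of the 11, 4 had a fitted difference below 0 and 7 above, 0 passed the threshold in edgeR (2 lower and 2 higher at an unadjusted p below 0.05, 1 lower in DESeq2 and 0 in limma-trend), and the median log2 fold change was 0.04. Of these genes Il2rb, a receptor chain for interleukin signals, differed most in CPM, with means of 3041 in Myc wt/wt and 4193 in Myc fl/fl libraries (log2 fold change 0.47, adjusted p = 0.0852). Prf1, the pore-forming perforin, had the largest log2 fold change of the list, 0.93 (adjusted p = 0.0771), with 616.2, 689.5 and 498.3 CPM in Myc wt/wt and 846.4, 891.4 and 1987.5 CPM in Myc fl/fl libraries, the last of these far above the others. Itga2, an integrin chain, had −0.56 (adjusted p = 0.0342) and Gzma, a granzyme, −0.64 (adjusted p = 0.0564). Of the basophil and mast cell markers 8 of 8 rose past the threshold, with sums from 15.1 to 18.5 CPM in Myc wt/wt and from 122 to 334 CPM in Myc fl/fl libraries. Neutrophil and granulocyte progenitor markers (4 of 8 tested rose) ranged from 85.4 to 140 against 538 to 897 CPM, erythroid markers (3 of 8 rose) from 46.6 to 285 against 569 to 1190 CPM, and monocyte markers (3 of 5 rose) from 1440 to 1740 against 1730 to 2080 CPM. Nearly all of the monocyte sum was Ccr2, which did not pass (log2 fold change 0.25), while Csf1r, F13a1 and Lyz2 rose, from means of 2.86, 5.69 and 5.13 CPM to 10.7, 21.7 and 20.5 CPM. Platelet markers (1 of 4 rose) ranged from 3.38 to 9.83 against 16.6 to 58.5 CPM, plasmacytoid dendritic cell markers (1 of 3 tested rose) from 57.8 to 63.8 against 85.6 to 98.4 CPM, and T cell markers (0 of 5 tested passed) from 227 to 474 against 237 to 317 CPM. At an unadjusted p below 0.05, 1 of the T cell markers was lower and 1 higher, with 0 past the threshold in DESeq2 and limma-trend. Cd79a and Cd79b, which encode chains of the B cell antigen receptor complex and are named after their values were seen, did not overlap. Cd79a had 0.130, 0.443 and 0.611 CPM in Myc wt/wt and 0.868, 0.805 and 2.48 CPM in Myc fl/fl libraries (log2 fold change 1.64, adjusted p = 0.0839), and Cd79b had 3.25, 5.53 and 6.73 against 9.53, 9.44 and 8.99 CPM (0.87, adjusted p = 0.0898). Of 12 genes of proliferating cells all had a fitted difference below 0, 1 past the threshold (Mki67) and 8 at an adjusted p below 0.05, with sums from 3240 to 4370 against 2270 to 2590 CPM. The part of other cells and of proliferation in the levels of the import genes was not tested.

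Myc wt/wt library 1 stood apart by transcript length. Of the 10 tested import genes with the shortest effective length it was below both other Myc wt/wt libraries in 8, and of the other 25 it was above both in 17. Tomm6 had 45.5, 98.7 and 97.4 CPM, Tomm5 59.2, 93.9 and 105.6 CPM and Pam16 3.90, 11.7 and 9.999 CPM in the Myc wt/wt libraries, each lowest in library 1. Of the genes with an adjusted p below 0.05, Timm8a1, Hspa9, Tomm20 and Timm9 were highest in Myc wt/wt library 1 among the Myc wt/wt libraries, and Timm10 was lowest there. The positive log2 fold changes of Tomm6 and Pam16 became −0.25 and −0.26 without both libraries numbered 1. Depth and length in this library cannot be told apart from the sample it was made from.

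Some import genes share sequence with other genes, and their estimated counts depend on how the quantifier divided the reads. Gm10273, a near-identical copy of Timm23, had 28.6, 40.4 and 27.6 CPM in Myc wt/wt and 3.85, 1.68 and 30.9 CPM in Myc fl/fl cells, so Myc fl/fl library 4 was as high as the Myc wt/wt libraries. With the counts of both added, the log2 fold change of Timm23 was −0.34 (adjusted p = 0.1498). The counts of Pam16 summed to 2986 over the libraries and those of its copy Gm9803 to 3319, and with both added the log2 fold change was 0.01. Timm10b had −0.35 with the counts of Gm45799 added, in place of −0.29. Over 612 of its 1421 bases Timm8a1 is identical to Gm9797, for which the deposited values hold no counts. The kit does not mark strand, so reads in the 411 bases that Grpel1 shares with Tada2b, the 874 bases that Pmpca shares with Inpp5e and the 49 bases that Timm9 shares with Tomm20l, on opposite strands, cannot be told apart.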

How the data were processed

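The authors prepared poly(A)-selected libraries with the SMART-Seq v4 kit, which does not mark strand, and sequenced single end reads. The deposited table of each library gives 100583 mouse transcripts with their effective length, estimated count and TPM, as the authors' quantifier wrote them. The methods name Salmon and the GRCh38 reference, whereas the columns are those of kallisto and the identifiers are mouse, so which tool made the values is not settled here, and the version is not given in the sources used here. The estimated counts are not normalized.

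For each gene symbol of GENCODE M21 (GRCm38) the estimated counts of its transcripts were added up. In that annotation 100239 transcripts were found, and sums were rounded. Unmatched transcripts held 0.129% to 0.169% of the counts. Genes kept by filterByExpr were scaled by TMM and tested with edgeR 4.0.16 (quasi-likelihood, R 4.3.3). The block was the replicate number, since the study speaks of paired analyses. P-values were adjusted by Benjamini-Hochberg over all 15474 genes. SE is the log2 fold change divided by the square root of its F value, and intervals use the fitted degrees of freedom. Deviations of libraries with the same number correlated at −0.0121, −0.0198 and 0.0505, below the limit of 0.1 for taking them as pairs of mice. Nothing states that the samples are separate mice, in which case p-values would measure the spread between samples only. Replicates differed by more than counting noise (chi-square of 39.2 to 99.1 per degree of freedom).

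The members, lists and tests were chosen with earlier results of these data known. All members are named. Values per library are given for the member past the threshold, the members with the smallest adjusted p up to 12, and Tomm40, Timm23, Samm50, Hspa9 and Timm22. Of the other pathway genes Hspd1 and Lonp1 were to be named. The library values of Timm8b, Mtx1, Pmpca, Timmdc1, Tomm5, Tomm6, Pam16 and Mtx3 and the value of Hspe1 were added after the data were seen. Alternatives were the fit without the block, each replicate left out, DESeq2 (1.42.0), limma-trend (3.58.1), the largest adjusted p of the 3 methods, other scalings, effective length offsets, protein_coding transcripts only, other filters, and a looser threshold. The addition of near-identical copies (at least 95% identity over 200 bases, BLAST 2.17.0) and ratios without Myc wt/wt library 1 were chosen after seeing the data. Fits were tested on simulated data. A further marker list and part of the sort gate are not reported here. Promoter windows are RefSeq's for GRCm38.p6.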

Additional observations from a re-analysis of the deposited data

How the results depend on the processing

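The number of import genes that fell past the threshold was 1 in edgeR with the replicate block and 1 without the replicate block. It was 0 to 1 with a replicate left out (0 without replicate 1), 0 with library size only, 0 with protein_coding transcripts only, 5 in DESeq2, 4 with no filter on low counts and 5 at an adjusted p below 0.05 with no fold change limit. Calls over all genes moved too, with 0.872% of all genes tested lower in edgeR with the block, 1.19% without it, 0.162% with library size only, 0.383% with protein_coding transcripts only, 3.47% in DESeq2 and 1.83% with no filter. The genes added to Timm8a1 were Hspa9, Tomm20 and Timm9 without the filter, and Timm10 as well in DESeq2. The count at an adjusted p below 0.05 ran from 1 (without replicate 1) to 7 (DESeq2). The shares of all genes at that limit were not computed for these 2 fits, so these counts cannot be compared with each other. Timm8a1 had −0.92 without replicate 1 (adjusted p = 0.0271, edgeR), −1.07 with library size only (0.0113) and −1.10 with protein_coding transcripts only (0.0101), and its log2 fold change stayed below 0 in all 16 alternatives. In none of them did an import gene rise past the threshold, and the median log2 fold change ran from −0.32 (without replicate 2) to −0.24 (at least 10 counts in every library). The block changed no call of an import gene at the threshold. At an adjusted p below 0.05 there were 5 import genes with it (against 3.38% of all genes lower) and 6 without it, Grpel1 having 0.0963 and 0.0499. For the fit without the block the share of all genes at that limit was not computed. Past the threshold, 135 of all genes fell and 198 rose with the block, 184 and 203 without it. Without replicate 1 the numbers over all genes were 10 and 49, with DESeq2 537 and 643.

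The genes that changed sign had log2 fold changes of at most 0.21 in size. With a replicate left out the log2 fold change ran from −0.28 to 0.0371 for Tomm34, −0.25 to 0.44 for Tomm6, −0.26 to 0.68 for Pam16, −0.0178 to 0.17 for Timm29, −0.00504 to 0.15 for Tomm40l, −0.11 to 0.00044 for Tomm40, −0.0911 to 0.19 for Pmpca, −0.12 to 0.0608 for Tomm22, −0.17 to 0.0359 for Timm8b and −0.066 to 0.0648 for Timm17b. With no replicate block and without Myc wt/wt replicate 1 it was −0.18 for Tomm6, −0.21 for Pam16, −0.10 for Tomm40l and 0.0294 for Timm17b. With effective length offsets it was 0.0126 for Tomm40 and 0.0657 for Timm17b, and Timm17b had 0.00055 with library size only, 0.00039 with no filter and 0.0129 with at least 10 counts in every library. The cause of these changes was not tested. In the shallow Myc wt/wt library 1, Pam16 and Timmdc1 rest on 30.4 and 46.0 estimated counts, which limits the precision of their values.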
